A study of Mus musculus with 4 samples.

Results

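The 10 genes described here are known from fat cells: Adipoq, Lep, Retn, Cfd, Lpl, Fabp4, Plin1, Slc2a4, Car3 and Adig. They were chosen by name, with values of these libraries known, from the 43629 Ensembl genes of the count files, and each name matched 1 identifier. The series measured RNA of mouse pancreatic islets (C57BL/6 strain), which are small clusters of endocrine cells, with 1 library in each of 4 groups. The first, of wild-type genotype, was an RNA immunoprecipitation (RIP) with IMP2, an RNA-binding protein whose gene is Igf2bp2. The second, labelled IgG, was of wild-type genotype too, and IgG commonly serves as the unspecific antibody in a RIP. The third came from islets with the genotype Rip2;IMP2, which the series title calls a knockout of IMP2 specific to islets, and the fourth from control islets. Rip2 usually stands for the rat insulin promoter, which works in beta cells, and a deletion driven by it would leave adipocytes with the intact gene. The labels do not say how many mice or cultures stand behind a library. Because each group is a single library, no difference below has a replicate check and no p-value is given.

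Adipocytes store triglyceride in a large lipid droplet and release fatty acids when other tissues need them. They take up fatty acids that a secreted lipase frees from lipoproteins, take up glucose under insulin, and secrete hormones that act on appetite, liver and muscle. Fat lies around the mouse pancreas. Brown fat shares this program and adds the uncoupling protein Ucp1, which turns the energy of fuel oxidation into heat.

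The libraries held 6025594 gene counts in the IMP2 RIP, 13195732 in the IgG library, 24275628 in the library labelled knockout and 26350813 in control islets. Igf2bp2, the gene named as deleted, had 186 counts in the IMP2 RIP, 458 in IgG, 222 in the library labelled knockout and 255 in control islets. The ratio between the islet libraries was 0.979 (0.814 to 1.18, labelled knockout over control, exact 95% interval). The knockout label is therefore used without support from its own gene, and counts summed over all exons can miss the loss of some of them. The IgG library went against its islet label: the 10 beta cell markers summed to 236058 CPM in the IMP2 RIP, 973.3 in IgG, 335002 in the library labelled knockout and 309568 in control islets. CPM is the usual scale of counts per library total of gene counts, the same for all libraries.

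The 10 adipocyte genes together made up 0.215% of gene counts in the IMP2 RIP (exact 95% interval 0.211 to 0.219), 3.72% in IgG (3.71 to 3.73), 0.0229% in the library labelled knockout (0.0223 to 0.0235) and 0.0274% in control islets (0.0268 to 0.0281). The intervals cover counting error only. All 10 genes stood higher in the IMP2 RIP than in both islet libraries, and lower there than in IgG. The 2 islet libraries differed from the other 2 in make-up as well as in level. Lpl and Fabp4 held 52.6% of the counts of the 10 genes in the IMP2 RIP and 45.1% in IgG, against 97.7% in the library labelled knockout and 97.3% in control islets. The other 8 genes summed to 1019 CPM in the IMP2 RIP, 20418 in IgG, 5.36 in the library labelled knockout and 7.32 in control islets. In bulk RNA, fewer adipocytes and less RNA per adipocyte cannot be told apart.

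**Figure D1:**
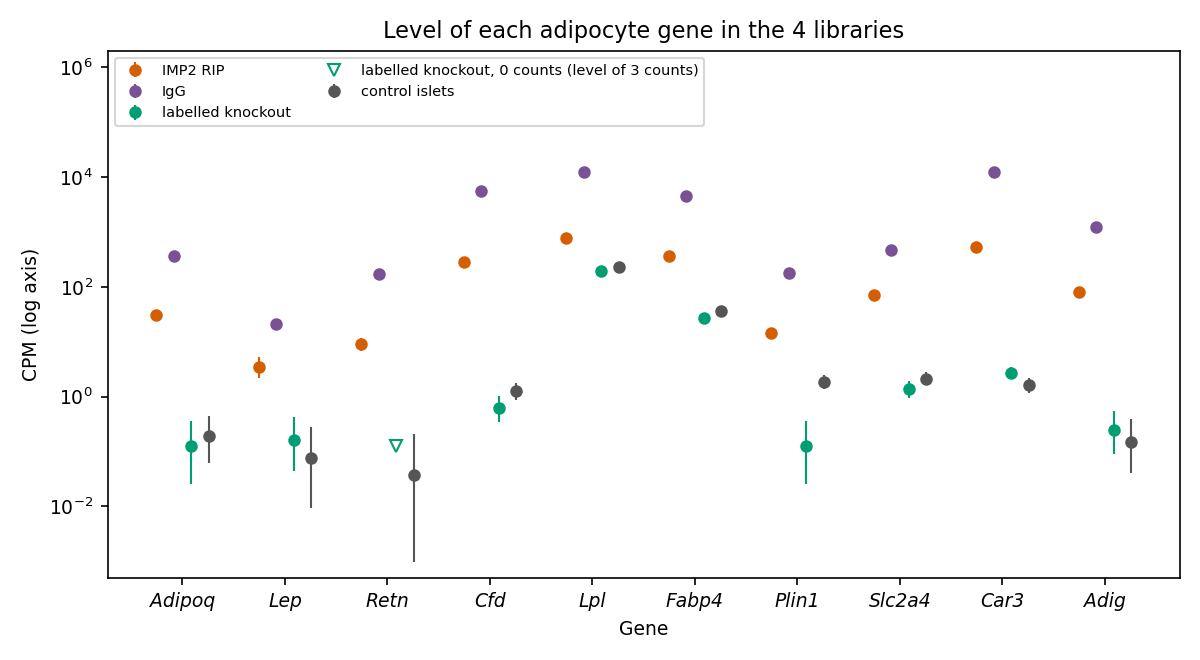
Level of each of the 10 genes in CPM on a log axis in the IMP2 RIP, IgG, labelled knockout and control islet libraries, with 1 library per point and vertical lines for the exact 95% Poisson interval (counting error only). The triangle marks Retn, with 0 counts in the labelled knockout, at the level of 3 counts; IgG is highest and the IMP2 RIP next for each gene, while Lpl and Fabp4 alone stand above 20 CPM in the islet libraries.

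Promoters of the genes are printed as a description, and no link between their motifs and the levels in the libraries was tested. RefSeq sequence (GRCm38.p6) was matched for 6 of the 10 genes, namely Adipoq, Lep, Retn, Cfd, Plin1 and Adig, with Fabp4, Lpl, Slc2a4 and Car3 as the others. The 250 bases before the annotated start were searched on both strands for 5 motifs: TATAAA, found in many core promoters, CCAAT, bound by NF-Y, TTGCGNAA, an element of C/EBP factors, which drive adipocyte differentiation, AGGTCA, the core site of nuclear receptors such as PPARG, and GGGCGG, bound by SP1. The 3 windows below are those with a match, printed 5' to 3' on the gene's strand with the matched letters in capitals.
Lep (chr6:29059971-29060220, plus strand): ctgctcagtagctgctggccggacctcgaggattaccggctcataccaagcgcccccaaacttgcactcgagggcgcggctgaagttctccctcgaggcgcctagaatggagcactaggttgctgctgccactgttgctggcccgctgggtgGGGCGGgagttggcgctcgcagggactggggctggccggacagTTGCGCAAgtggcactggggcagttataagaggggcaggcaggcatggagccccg
Adipoq (chr16:23146286-23146535, plus strand): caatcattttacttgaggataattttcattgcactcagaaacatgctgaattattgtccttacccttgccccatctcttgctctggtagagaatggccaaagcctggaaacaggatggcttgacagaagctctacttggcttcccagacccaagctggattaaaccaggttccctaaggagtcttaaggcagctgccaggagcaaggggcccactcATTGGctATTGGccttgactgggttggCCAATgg
Adig (chr2:158502362-158502611, plus strand): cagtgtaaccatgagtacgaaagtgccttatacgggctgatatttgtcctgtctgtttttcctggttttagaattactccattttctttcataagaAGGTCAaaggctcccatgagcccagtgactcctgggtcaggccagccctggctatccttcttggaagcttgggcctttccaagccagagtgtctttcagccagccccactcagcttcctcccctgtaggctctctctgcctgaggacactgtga
The window of Lep held TTGCGNAA at 55 to 48 bases before the start, where the match reads the same on both strands, and GGGCGG at 98 to 93 bases. Adipoq held CCAAT 3 times within the last 34 bases, at 34 to 30, 27 to 23 and 7 to 3 bases before the start. Adig held AGGTCA at 154 to 149 bases. Of all 32817 promoter windows of the same length, TTGCGNAA was found in 0.670%, AGGTCA in 14.0%, CCAAT in 33.8%, GGGCGG in 32.7% and TATAAA in 12.4%. No motif was found in more than 1 of the 6 windows, and a window without a match says only that these letters are not in it.

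The secreted hormones were high in the IgG library, lower in the IMP2 RIP and near 0 in islets. Adipoq encodes adiponectin, an insulin-sensitizing hormone (ENSMUSG00000022878, mm10 chromosome 16, 23146536 to 23158028, plus strand). It had 182 counts in the IMP2 RIP (30.2 CPM), 4725 in IgG (358.1 CPM), 3 in the library labelled knockout and 5 in control islets. Lep encodes leptin, the satiety hormone made mainly by white fat (ENSMUSG00000059201, chromosome 6, 29060220 to 29073877, plus strand). It had 21 counts in the IMP2 RIP (3.49 CPM), 278 in IgG (21.1 CPM), 4 in the library labelled knockout and 2 in control islets. Retn encodes resistin, in mice a hormone of adipocytes (ENSMUSG00000012705, chromosome 8, 3655770 to 3660110, plus strand). It had 55 counts in the IMP2 RIP (9.13 CPM), 2253 in IgG (170.7 CPM), 0 in the library labelled knockout and 1 in control islets. For each of these hormones the islet libraries held 5 counts or fewer, and their intervals overlapped each other but not those of the IMP2 RIP or IgG.

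Cfd and Lpl encode secreted enzymes, and they differed in what islets held of them. Cfd encodes adipsin, the protease complement factor D (ENSMUSG00000061780, chromosome 10, 79890853 to 79892655, plus strand). It had 1736 counts in the IMP2 RIP (288.1 CPM), 72050 in IgG (5460.1 CPM), 15 in the library labelled knockout (0.618 CPM) and 33 in control islets (1.25 CPM). Lpl encodes lipoprotein lipase, which frees fatty acids from circulating triglyceride and is also made in muscle and macrophages (ENSMUSG00000015568, chromosome 8, 68880491 to 68907448, plus strand). It had 4649 counts in the IMP2 RIP (771.5 CPM), 163305 in IgG (12376 CPM), 4764 in the library labelled knockout (196.2 CPM) and 6070 in control islets (230.4 CPM). Per kilobase of transcript, Lpl stood at 56.0 CPM in control islets and Cfd at 1.36 CPM. Part of Lpl is shared with other transcripts: stretches of at most 157 bases matched 204 other genes at an identity of 97% or more. Reads from such stretches may go uncounted. All annotated transcripts of each gene were searched, so the matches need not lie in the principal one. Plin1 matched 1 other gene, Rgsl1, over 79 bases, and the remaining members matched none.

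The genes of lipid handling and the lipid droplet differed in islets. Fabp4 encodes the fatty acid-binding protein of adipocytes, which capillary endothelium and macrophages also make (ENSMUSG00000062515, chromosome 3, 10204088 to 10208576, minus strand). It had 2168 counts in the IMP2 RIP (359.8 CPM), 58469 in IgG (4431 CPM), 660 in the library labelled knockout (27.2 CPM) and 960 in control islets (36.4 CPM). Plin1 encodes perilipin 1, which coats the droplet and gates lipolysis (ENSMUSG00000030546, chromosome 7, 79720218 to 79732903, minus strand). It had 88 counts in the IMP2 RIP (14.6 CPM), 2402 in IgG (182.0 CPM), 3 in the library labelled knockout (0.124 CPM) and 49 in control islets (1.86 CPM). Among the 9 members with a ratio between the islet libraries, Plin1 had the one farthest from 1. Adig encodes adipogenin, a small membrane protein of adipocytes (ENSMUSG00000044405, chromosome 2, 158502612 to 158508198, plus strand). It had 486 counts in the IMP2 RIP (80.7 CPM), 16580 in IgG (1256 CPM), 6 in the library labelled knockout and 4 in control islets.

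Slc2a4 and Car3 are shared between fat and skeletal muscle. Slc2a4 encodes GLUT4, the insulin-regulated glucose transporter (ENSMUSG00000018566, chromosome 11, 69942539 to 69948188, minus strand). It had 429 counts in the IMP2 RIP (71.2 CPM), 6254 in IgG (473.9 CPM), 33 in the library labelled knockout (1.36 CPM) and 56 in control islets (2.13 CPM). Car3 encodes a cytosolic carbonic anhydrase (ENSMUSG00000027559, chromosome 3, 14863512 to 14872523, plus strand). It had 3141 counts in the IMP2 RIP (521.3 CPM), 164894 in IgG (12496 CPM), 66 in the library labelled knockout (2.72 CPM) and 43 in control islets (1.63 CPM). The 13 skeletal muscle markers summed to 98.2 CPM in the IMP2 RIP, 244.1 in IgG, 8.16 in the library labelled knockout and 7.93 in control islets. Of these markers, Tnnc2 and Myh2 were at 0 counts in both the IMP2 RIP and IgG, Myh1, Mylpf and Atp2a1 in the IMP2 RIP and Myh7 in IgG. The part of muscle RNA in the levels of Slc2a4 and Car3 was not tested.

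Levels of different genes are compared per kilobase of the principal transcript. On that scale of CPM per kilobase the IgG library was led by Car3 at 7443, Cfd at 5922, Fabp4 at 4945, Lpl at 3007 and Adig at 1988. Adipoq followed at 277.1, Slc2a4 at 187.8, Retn at 149.9, Plin1 at 64.6 and Lep at 6.46. The IMP2 RIP was led by Fabp4 at 401.6, Cfd at 312.5 and Car3 at 310.5, with Lep again lowest at 1.07. Of the 10 genes, 6 held the same place in the IMP2 RIP and in IgG. In islets the order was another one: Lpl led with 47.7 in the library labelled knockout and 56.0 in control islets, and Fabp4 followed with 30.3 in the library labelled knockout and 40.7 in control islets. No other member passed 2 CPM per kilobase in either islet library.

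**Figure D2:**
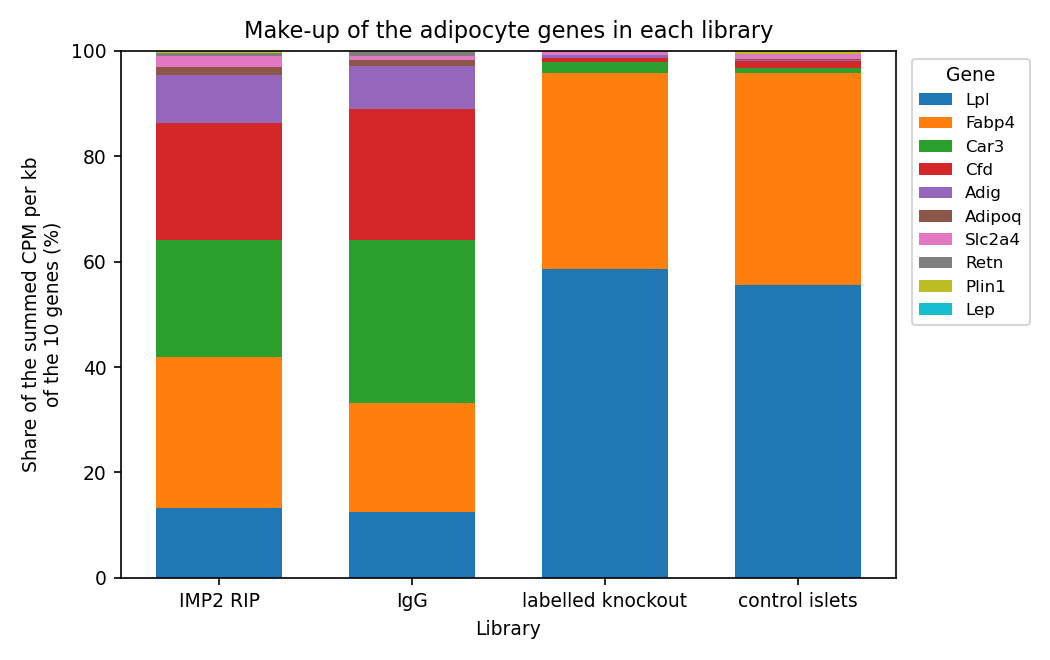
Share of each gene in the summed CPM per kilobase of the 10 genes, in percent, for the IMP2 RIP, IgG, labelled knockout and control islet libraries (bars from 0 to 100%, 1 library each, no error bars). Car3, Cfd, Fabp4 and Lpl share most of the IMP2 RIP and IgG bars, while Lpl and Fabp4 fill nearly the whole islet bars.

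Setting a RIP against IgG usually asks which RNAs come down with IMP2 more than with an unspecific antibody. Here the libraries also differed in islet RNA, with beta cell markers at 236058 CPM in the IMP2 RIP and 973.3 in IgG. Binding of the adipocyte RNAs by IMP2 was therefore not tested. All 10 adipocyte genes were lower in the IMP2 RIP than in IgG, between 9.75-fold for Lep (6.25 to 16.0) and 38.7-fold for Car3 (37.3 to 40.1). Under totals without hormone, acinar and Gm42418 counts, the log2 ratio was -1.80 for Lep and -3.82 for Car3, against -3.25 and -5.27 as reported. A gene was called when the mean CPM of both libraries was at least 1, the ratio differed from 1 by 2-fold or more, and its exact 95% interval did not hold 1. All 10 were measured and called lower. Of the 14822 measured genes, 73.7% were called by the same rule, 43.2% higher and 30.5% lower. The choice of the genes rests on this contrast, so these folds are a description. The median log2 ratio was -4.49 for the 10 genes and 0.44 for all measured genes.

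The ratios of IMP2 RIP over IgG were not the same for all members. Between the extremes lay Slc2a4 at 10.7-fold lower (9.73 to 11.9), Adipoq at 19.1-fold (16.5 to 22.3), Fabp4 at 19.9-fold (19.0 to 20.7) and Plin1 at 20.1-fold (16.2 to 25.2). Adig was 25.1-fold lower (22.9 to 27.5), Lpl 25.9-fold (25.1 to 26.6), Retn 30.2-fold (23.1 to 40.2) and Cfd 30.6-fold (29.1 to 32.1). Counts in these libraries may stand for fewer molecules. Genes at 0 in both islet libraries, where they had over 5 counts, had a median of 18 counts in the IMP2 RIP (230 genes) and 21 in IgG (121 genes). This median is taken here as the counts of 1 molecule. It is a rough estimate, since it depends on the cut at 5 counts and covers genes abundant in IgG, such as Elovl3 with 1425 counts. For Fabp3 in the IMP2 RIP it gives 0.0556 molecules. On that estimate Lep in the IMP2 RIP was 1.17 molecules against 13.2 in IgG, and Cfd 96.4 against 3431. With intervals on estimated molecules, the ratio of Slc2a4 (0.0587 to 0.142) and that of Fabp4 (0.0416 to 0.0605) still lay above those of Cfd (0.0264 to 0.0401) and Car3 (0.0221 to 0.0301) without overlap. The interval of Lep widened to 0.00377 to 0.616, which overlaps that of every other member. The molecule intervals leave out variation between libraries. With an assumed variation of 0.2 added to the counting error instead, Fabp4 overlaps both Cfd and Car3, and Slc2a4 overlaps Cfd.

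**Figure D3:**
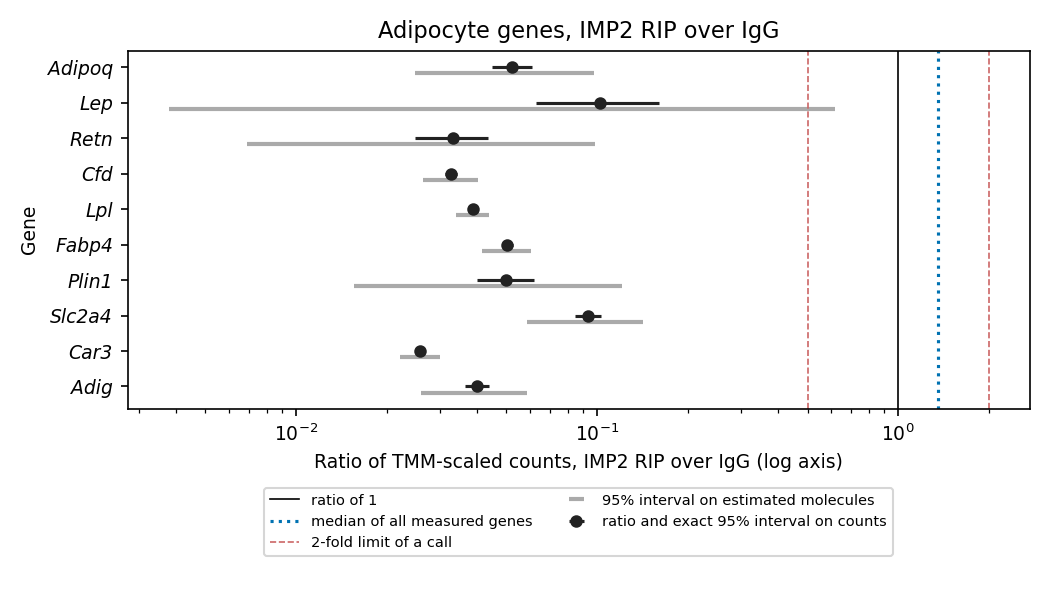
Ratio of TMM-scaled counts, IMP2 RIP over IgG, on a log axis for the 10 genes, with black lines for the exact 95% interval on counts and grey lines for the interval on estimated molecules. All 10 lie between 0.0259 and 0.103, left of the 2-fold limit (dashed) and of the median of all measured genes (dotted).

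Expressed per library total, the IMP2 RIP held less than the IgG level of each of these genes, to a degree that differed between them. It was lowest for Car3 at 4.17% (4.03 to 4.32) and highest for Lep at 16.5% (10.1 to 25.8), with a median of 7.22% over the 10. Of the other fat lists, those of lipid droplets and brown fat had medians near this one, with ranges of their own, and both hold Cidea. The remaining fat medians were higher: lipid uptake partners 13.6%, lipid synthesis 14.9%, receptors 21.5% and differentiation factors 29.7%. Other secreted products stood at 60.3% and white fat, with 3 genes counted in IgG, at 66.3%. The 15 genes of lipid droplets and lipolysis had a median of 8.38% (4.37% to 17.5%), and all 15 were called lower in the IMP2 RIP. They included Cidec at 36.9-fold lower, which makes droplets large, Pnpla2, the first lipase of lipolysis, at 27.5-fold, Lipe, hormone-sensitive lipase, at 17.3-fold and Mgll at 9.24-fold. Of 12 brown fat genes, 11 were measured, 10 were called lower and 0 higher, with a median of 8.25% and a range from 0.184% for Fabp3 to 84.1% for Ppargc1a, which was not called. Ucp1 had 186.4 CPM in the IMP2 RIP, 4121 in IgG, 0.577 in the library labelled knockout and 0.190 in control islets, and Fabp3 had 1 count in the IMP2 RIP and 1193 in IgG. Lists of other tissues were divided. The 5 blood genes had a median of 4.36% and the 7 liver genes one of 0.567%, and all measured ones were called lower. Of these genes, Apoa1, Serpina1a, Fgb and Alas2 had 0 counts in the IMP2 RIP. The liver median is that of Alb, with 7 counts there, and Alas2 in IgG was 1.43 estimated molecules. Skeletal muscle genes had a median of 33.5%, with 7 of 10 measured called lower and 1 higher.

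Lipid synthesis and uptake genes were lower in the IMP2 RIP with more spread. Of 12 lipid synthesis genes, 11 were called lower and 0 higher, from Acacb, an acetyl-CoA carboxylase, at 29.7-fold to Lpin1 at 2.65-fold. Scd2 had a ratio of 0.544 (0.486 to 0.607), within the 2-fold limit, while its paralog Scd1 was 19.2-fold lower, with 2870 CPM in the IMP2 RIP against 34177 in IgG. All 10 uptake genes were called lower, among them the fatty acid transporter Cd36 at 22.8-fold, the lipase inhibitor Angptl4 at 33.6-fold and Gpihbp1, which holds lipoprotein lipase on capillaries, at 14.9-fold. The call of Fabp5, 2.84-fold lower, was lost on estimated molecules (0.0449 to 1.66).

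Differentiation factors and receptors were divided in the same comparison. Of 10 adipocyte differentiation factors, 7 were called lower in the IMP2 RIP and 2 higher. Pparg, the nuclear receptor that drives fat cell formation, was 24.1-fold lower and Cebpa 12.9-fold. Ebf1, a factor that B cells share with fat, was 2.63-fold higher (2.20 to 3.14). Ebf2, a factor of brown fat precursors, had 49 counts in the IMP2 RIP, 0 in IgG, 25 in the library labelled knockout and 21 in control islets. That is at least 22.2-fold higher in the IMP2 RIP against a floor of 3 counts in the IgG library, and the call was lost on estimated molecules. Of 8 receptors, 5 were called lower, led by Adrb3, the beta-adrenergic receptor of adipocytes, at 59.4-fold. The leptin receptor gene Lepr (69 counts against 0) and Adrb1 (52 against 0) were called higher, at least 31.2-fold and 23.5-fold, and both calls were lost on estimated molecules. The other secreted products had 3 of 6 called lower, with Nrg4, a secreted factor of brown fat, at 60.9-fold. Sfrp5 was called higher, with 229 counts in the IMP2 RIP, 3 in IgG, 1827 in the library labelled knockout and 1489 in control islets (ratio 103.7, 35.0 to 506.4, for the IMP2 RIP over IgG).

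Markers that mark white fat were sparse in all libraries. The 7 of the list summed to 12.6 CPM in the IMP2 RIP, 9.93 in IgG, 9.47 in the library labelled knockout and 9.07 in control islets. Hoxc9, Tcf21 and Wfdc21 were at 0 counts in both the IMP2 RIP and IgG. The 3 genes measured in that pair, Hoxc8, Hoxc10 and Mest, had a median log2 ratio of 4.35 (IMP2 RIP over IgG), opposite in sign to the other fat lists. The median of 66.3% given above is of another set, the genes with counts in IgG: Hoxc8, Mest and Slc7a10. Hoxc10 had 18 counts in the IMP2 RIP and 0 in IgG, and Mest had 22 and 1. On the estimate above, the IMP2 RIP counts are 1 molecule for Hoxc10 and 1.22 for Mest, so the positive median rests on very few molecules. Hoxc8 went the other way, with 36 counts in the IMP2 RIP and 119 in IgG, where it held 9.02 of the 9.93 CPM.

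**Figure D4:**
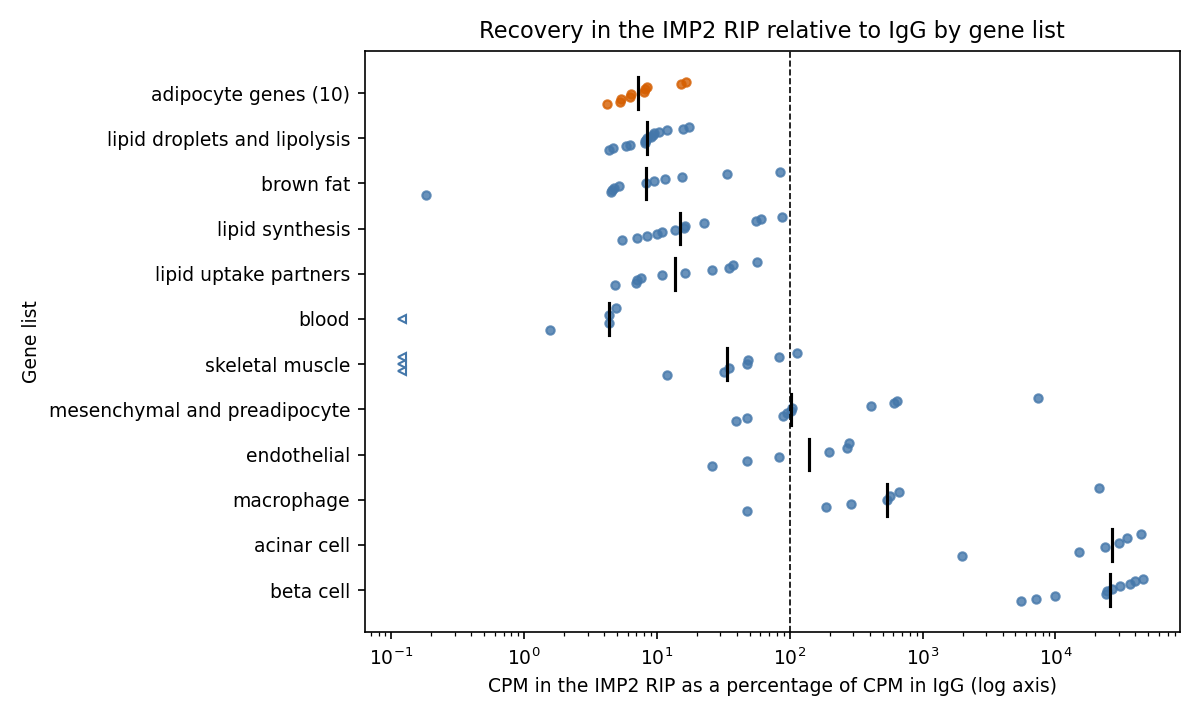
CPM in the IMP2 RIP as a percentage of CPM in IgG on a log axis, 1 point per gene with counts in IgG, by gene list. Vertical bars are list medians, open triangles at the left edge are genes with 0 counts in the IMP2 RIP, and the dashed line marks equal levels. Adipocyte, droplet and brown fat genes have medians between 7.22% and 8.38%, and the acinar and beta cell lists have the medians farthest right.

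Markers of mesenchymal, endothelial and macrophage cells did not lie with the 10 genes, and each of these lists summed highest in control islets. The mesenchymal list summed to 351.9 CPM in IgG and 762.0 in control islets, and the endothelial list to 291.5 and 522.8 in the same order. Their ratios therefore cannot tell cells around adipocytes from cells of the islets. The 10 mesenchymal and preadipocyte genes had a median of 102.6% of the IgG level in the IMP2 RIP per library total, and a median log2 ratio of -0.65 under TMM, with 4 called higher and 2 lower. The 6 endothelial genes had a median of 139.4% per library total and a median log2 ratio of -0.34 under TMM, with 0 called higher and 2 lower, so that the direction of both medians turns with the scaling. The 7 macrophage genes had a median of 540.2%, with 4 called higher and 1 lower, and summed to 221.6 CPM in the IMP2 RIP, 72.7 in IgG, 352.7 in the library labelled knockout and 633.3 in control islets. These differences between lists were not tested.

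Against control islets, all 10 adipocyte genes were called higher in IgG and all 10 in the IMP2 RIP, by the same rule. For IgG over control, 73% of all measured genes were called, 25.7% higher and 47.3% lower. For the IMP2 RIP over control, 41.2% were called, 16.8% higher and 24.3% lower, and both comparisons share the control library. The median log2 ratio of the 10 genes was 10.18 for IgG over control, where that of all measured genes was -0.79, and 6.49 for the IMP2 RIP over control, where it was -0.12. Lpl had the lowest ratio in both, at 101.1 (98.6 to 103.8) for IgG over control and 4.07 (3.91 to 4.22) for the IMP2 RIP over control. Fabp4 stood at 229.0 (214.8 to 244.3) for IgG over control and 12.0 (11.1 to 12.9) for the IMP2 RIP over control. Plin1 stood at 184.3 (138.9 to 249.8) and 9.53 (6.65 to 13.8) in the same order. Cfd was far above them, at 8208 (5844 to 11925) for IgG over control and 279.2 (198.1 to 407.0) for the IMP2 RIP over control. Adig and Car3 had the highest ratios for IgG over control, 15583 (6085 to 57198) and 14416 (10702 to 19921), and their intervals overlap. Lep, with 2 counts in control islets, had a ratio of 522.6 (143.3 to 4336) for IgG over control. For comparison, the 10 beta cell markers had a median log2 ratio of -7.29 for IgG over control and -0.06 for the IMP2 RIP over control, with 10 and 0 called lower.

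Genes with the profile most like that of the 10 over the 4 libraries were found by the Euclidean distance of centred log2(CPM + 0.5) values to the median profile, among the 2361 genes with at least 50 CPM in IgG. The 10 nearest that are no members were Elovl3, Mrap, Kng2, Dgat2, Plin5, Orm1, Gpd1, Proca1, H2-Q10 and Plin4. Elovl3, a fatty acid elongase of brown fat, lay nearest (distance 0.532), with 12.4 CPM in the IMP2 RIP, 108.0 in IgG and 0 counts in both islet libraries. Mrap, a melanocortin receptor accessory protein, followed (0.540), with 16.9 CPM in the IMP2 RIP, 151.8 in IgG, 0.206 in the library labelled knockout and 0.190 in control islets. Kng2 came next (0.545), at 11.6 CPM in the IMP2 RIP and 140.7 in IgG. Dgat2, the last step of triglyceride synthesis, and the droplet coat genes Plin4 and Plin5 belong to the lipid droplet list. Mrap, Kng2, Orm1, Gpd1, Proca1 and H2-Q10 are in none of the lists, so a near profile does not by itself mark a fat gene. The liver list too was higher in IgG (467.0 CPM) than in the IMP2 RIP (17.3) and control islets (28.7). The part of other tissues in these profiles was not tested. Of the members themselves, Lep fell under that minimum, at 21.1 CPM in IgG. Among the other members, Slc2a4 lay closest to the median profile (0.524) and Car3 farthest (3.66).

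The comparison of the library labelled knockout with control islets sets islets labelled as lacking IMP2 against controls, though Igf2bp2 itself did not differ beyond counting error. Here 4 of the 10 adipocyte genes reached a mean of 1 CPM, namely Lpl, Fabp4, Slc2a4 and Car3. With a limit of 1.5-fold, Car3 was called higher, with 66 counts in the library labelled knockout and 43 in control islets (ratio 1.73, 1.16 to 2.60), and 0 were called lower. Of 15735 measured genes, 21.4% were called by this rule, 6.13% higher and 15.3% lower. Lpl had a ratio of 0.882 (0.849 to 0.916) and Fabp4 one of 0.773 (0.699 to 0.854), both below 1 beyond counting error and within the 1.5-fold limit. Slc2a4 had a ratio of 0.662 (0.417 to 1.04), an interval that includes 1. The call of Car3 was lost when an assumed variation of 0.2 between libraries was added to the counting error (0.871 to 3.43) and with a minimum of 5 CPM.

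The other 6 genes were too sparse in islets for a call, and Plin1 came closest to the minimum. Plin1 had 3 counts in the library labelled knockout and 49 in control islets, a ratio of 0.0688 (0.0137 to 0.213), at a mean of 0.992 CPM. Cfd had 15 and 33 counts in the same order, a ratio of 0.511 (0.258 to 0.967), at a mean of 0.935 CPM. Without the minimum both would be called lower. With the assumed variation of 0.2 added, the interval of Cfd would include 1 and that of Plin1 would not. Adipoq had a ratio of 0.674 (0.105 to 3.47), Adig one of 1.69 (0.400 to 8.12) and Lep one of 2.25 (0.322 to 24.9), so that no direction was detectable at this depth. Retn, with 0 and 1 counts, gives no ratio. The other droplet coat genes had 466 counts in the library labelled knockout against 727 in control islets for Plin2 (ratio 0.721, 0.640 to 0.811) and 396 against 557 for Plin3 (0.799, 0.701 to 0.911), both within the 1.5-fold limit. Plin4 had 10 against 8 and Plin5 7 against 4, too few for a direction.

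**Figure D5:**
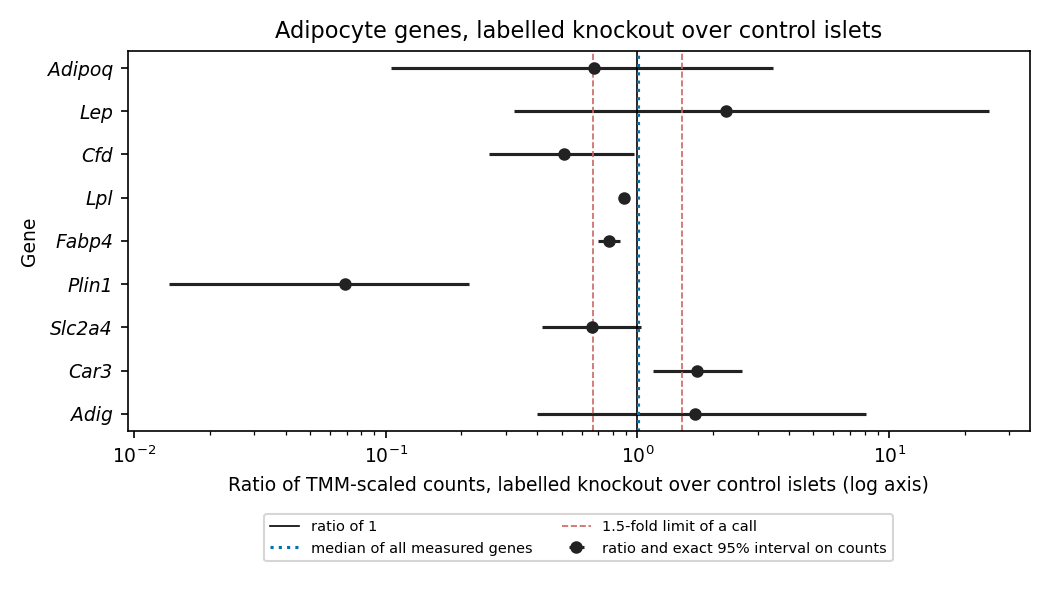
Ratio of TMM-scaled counts, labelled knockout over control islets, on a log axis for 9 of the 10 genes (Retn had 0 counts against 1), with lines for the exact 95% interval. Lpl and Fabp4 have narrow intervals just under 1, Car3 lies above the 1.5-fold limit (dashed), and Plin1, under the expression minimum, lies at 0.0688.

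Other fat lists are given for the library labelled knockout against control islets, to be read against the 15.3% of all measured genes called lower there and the 6.13% called higher. Of the uptake genes, 3 of 10 were called lower in that library and 0 higher: Angptl4 at 5.86-fold (46 counts against 303), Cd36 at 2.01-fold (260 against 586) and Fabp5 at 1.57-fold. Of the lipid synthesis genes, 2 of 12 were called lower, Scd1 at 3.44-fold and Gpam at 2.49-fold, and 0 higher. Among 12 measured genes of lipid droplets and lipolysis, Lipe was called lower at 1.58-fold and G0s2, an inhibitor of lipolysis, higher (ratio 1.78, 1.30 to 2.44). Among 9 measured differentiation factors, Ebf1 at 2.91-fold, Klf15 at 2.08-fold and Cebpa at 1.71-fold were called lower and 0 higher. Pparg had a ratio of 0.959 (0.726 to 1.27). With the assumed variation of 0.2, Fabp5, Lipe, G0s2 and Cebpa lost their calls. The receptors had 0 of 7 called in either direction, with Adipor1 at a ratio of 1.08 and Adipor2 at 0.882.

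Markers of other cells differed between the islet libraries as well. The 5 measured of 7 neutrophil markers were all called higher in the library labelled knockout, and the list summed to 42.7 CPM there and 1.18 in control islets. Of 4 alpha cell markers, 3 were called higher. The 7 macrophage markers had 2 called lower and 1 higher, and most of the difference in their sum was that of Lyz2, with 94.9 CPM in the library labelled knockout and 351.2 in control islets. The 6 endothelial markers summed to 379.9 CPM in the library labelled knockout and 522.8 in control islets, with 1 called lower. Brown fat genes summed to 39.9 CPM in the library labelled knockout and 36.1 in control islets, of which Kcnk3, a potassium channel, made up 27.9 and 24.2 CPM in the same order. The part of these cells in the ratios of Lpl, Fabp4 and Cd36 was not tested.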

How the data were processed

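Each library has 1 deposited file of raw read counts by Ensembl gene. Per the submitters' processing notes, the authors used HTSeq for counting and STAR for alignment (build mm10). Their versions, annotation and strand setting are not given in the sources used here. Entries that name no gene (5 a file) held 72.4% of the deposited total in the IMP2 RIP, 70.5% in IgG, 50.3% in the library labelled knockout and 50.8% in control islets, and stayed out of library sizes. Names, coordinates and lengths of principal transcripts came from GENCODE M21, which matched 42548 of 43629 identifiers. No member shared exon bases with another annotated gene.

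The genes and all 18 lists were chosen with earlier results of these data known. TMM scaling from edgeR 4.0.16 (R 4.3.3) was computed for each pair over all genes. Ratios have exact 95% Clopper-Pearson intervals, on the count of 1 library out of both, and CPM values exact Poisson ones. A gene was measured at a mean CPM of at least 1 and called when its interval excluded 1 at 2-fold or more, or 1.5-fold for the labelled knockout. Log2 ratios added 0.5 counts. The floor for a library at 0 is 3 counts. Without molecular identifiers, reads may be copies of 1 molecule, so intervals and floors cover counting error only. Named genes are the members, Igf2bp2, members of the lists and the 10 nearest profiles. The ratio code was tested on simulated data. BLAST 2.17.0 (at least 50 bases, 97% identity) found near-identical stretches. Alternatives were DESeq2 1.42.0 size factors, other totals, other minimums and wider intervals. Figures were drawn with Matplotlib 3.10.9, and tables were made with pandas 2.3.3 and SciPy 1.17.1 in Python 3.11.15.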

Additional observations from a re-analysis of the deposited data

How the results depend on the processing

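Values for the 10 genes were recomputed under library totals, DESeq2 size factors, and totals without hormone, acinar and Gm42418 counts. Other settings were minimums of 0 and 5 CPM, intervals on estimated molecules, and intervals widened by a variation of 0.2. For the nearest genes a pseudocount of 1 CPM was used, where Dgat2 and Gpd1 dropped out and 8 of 10 were shared. Of 330 such values, 321 kept their call or, for counts, stayed within 1.5 times of the reported count. Under the scalings, 0 log2 ratios changed direction. The minimums and intervals leave a log2 ratio as it is, and numbers of calls have no direction, so these values could not reverse. In the labelled knockout over control, the number called lower was 2 without an expression minimum (Plin1 and Cfd), and the number called higher was 0 at a minimum of 5 CPM and 0 with the widened interval, since Car3 lost its call. Lep and Retn lost the call for IMP2 RIP over control at a minimum of 5 CPM, which left 8 called higher. Scaling moved the median log2 ratio of all measured genes of IMP2 RIP over IgG between 0.40 (size factors) and 1.89 (totals without hormone, acinar and Gm42418 counts), with that of the 10 genes between -4.53 and -3.03. Calls in that comparison were higher for 58.6% under TMM, 69.4% under library totals and 79.4% under totals without those counts. For IgG over control they were 35.2%, 21.9% and 15.9%. Over all genes, IMP2 RIP over IgG had 6402 called higher and 4518 lower, 2309 and 2829 on estimated molecules, 9204 and 2388 under totals without those counts, and 3945 higher at 5 CPM. IgG over control had 3943 higher and 7268 lower, 3405 and 3963 on molecules, and 2577 higher under library totals and 1960 under totals without those counts. IMP2 RIP over control had 2686 higher and 3888 lower, 1373 and 1004 on molecules, and 1302 and 2220 at 5 CPM. The labelled knockout over control had 965 higher and 2409 lower, 263 and 1573 with the widened interval, and 497 and 1582 at 5 CPM. No paired analysis was possible because each group has 1 library.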
